A study of Homo sapiens with 6 samples.

Results

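The genes described here are 10 sensors of cytosolic or endosomal nucleic acid and the proteins that relay or limit their signal: DDX58, IFIH1, DHX58, TLR3, EIF2AK2, IFI16, MAVS, TMEM173, TBK1 and TREX1. They were chosen by symbol among the 20494 genes of the deposited table, with no measured value in the rule, and all 10 were found. Earlier results of these data were known when they were chosen. The cells were PA-1, an established line from a human ovarian teratocarcinoma. The 6 libraries comprise 1 from cells treated with 200 ng of the Wnt3a ligand for 16 h, 1 each from cells transfected for 48 h with 8 µg of RIPK1, RIPK2, RIPK3 or RIPK4 plasmid, and 1 from cells given 8 µg of the empty pCDNA3.1 vector for 48 h (Vector). A plasmid is recorded for every library but Wnt3a, whose label stands in the same transfection field. With 1 library in each group there is no replicate check of any difference, and neither a p-value nor an SD is given.

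Cells detect foreign nucleic acid with several families of proteins. RIG-I (DDX58), MDA5 (IFIH1) and LGP2 (DHX58) are helicases that bind RNA in the cytosol, and the first pair signals through MAVS on mitochondria. Cytosolic DNA is detected mainly by cGAS (MB21D1), whose second messenger activates STING (TMEM173), and both routes converge on the kinase TBK1 and on the transcription factor IRF3, which turns on interferon genes. Transfected plasmid DNA can be a ligand of these sensors, and several of them are themselves interferon-stimulated genes.

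Library totals recovered from the table lay between 17248966 and 19512255 reads. RIPK3 and RIPK4 stood at 61.4 and 17.9 RPKM (reads scaled to gene length and library size) in their own libraries and at 0 in Vector. RIPK2 stood at 27.4 RPKM in its own library, against 11.85 in Vector. RIPK1 stood at 16.6 RPKM in its own library, against 12.8 in Vector, a ratio of 1.30 (95% interval 1.20 to 1.41) that is short of 2-fold. Of 10 markers of pluripotent cells 7 or 8 reached 1 RPKM in each library, with TDGF1 at 0 throughout and NANOG at 0.0977 to 0.234. Their summed level was 490.7 RPKM in Wnt3a, 680.9 in RIPK1, 388.4 in RIPK2, 428.1 in RIPK3 and 570.9 in RIPK4, against 622.8 in Vector. LIN28A was the largest part of this sum in every library, so the sum is weighted to that gene. It stood at 337.3 RPKM in Wnt3a, 392.5 in RIPK1, 213.3 in RIPK2, 241.4 in RIPK3 and 355.9 in RIPK4, against 338.7 in Vector. SOX2 was at least 2-fold lower in Wnt3a, RIPK2 and RIPK3, and PRDM14 in Wnt3a. The part of such a change in the differences of the sensors was not tested. Of 10 blood-cell markers 1 or 2 reached 1 RPKM in each library, namely the lysosomal CD68 in every library and TYROBP in RIPK2.

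The RNA helicases had their highest levels in the RIPK2 and RIPK3 libraries and their lowest in Wnt3a and RIPK1, whereas the adaptors, the kinase TBK1 and the nuclease TREX1 varied far less. DDX58, IFIH1, EIF2AK2 and IFI16 were the only 4 members to differ from Vector by at least 2-fold in any comparison, with the difference taken on log2(RPKM + 1). That scale understates the difference of genes with low values. Between the lowest and the highest library IFIH1 spanned 19.8-fold, DHX58 8.14-fold and DDX58 7.21-fold in RPKM. The corresponding spans were 1.35-fold for MAVS, 1.55-fold for TBK1, 1.56-fold for TREX1 and 1.60-fold for TMEM173. A mean of at least 1 RPKM over the 6 libraries was reached by 11881 genes, called kept genes here, and by every member but TLR3. In bulk RNA, fewer cells with a transcript and less of it per cell cannot be told apart.

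**Figure D1:**
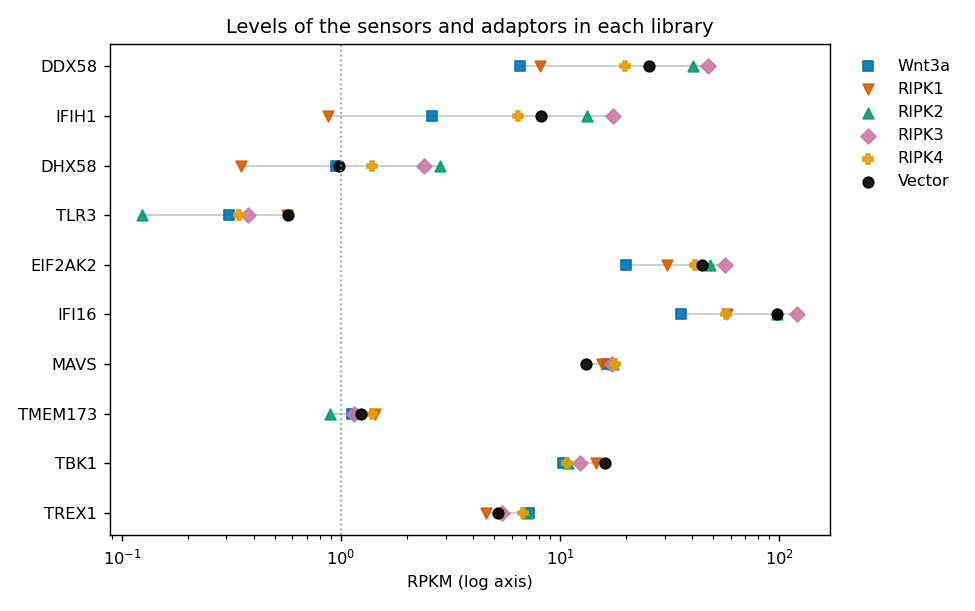
RPKM of each of the 10 genes (rows) in the 6 libraries, on a log axis, with 1 symbol for each library and a grey line from the lowest to the highest. The dotted line marks 1 RPKM. DDX58 runs between 6.54 and 47.2 RPKM, whereas MAVS stays between 13.2 and 17.8.

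DDX58 (gene identifier 23586), the RNA helicase RIG-I, stood at 6.54 RPKM in Wnt3a, 8.09 in RIPK1, 40.4 in RIPK2, 47.2 in RIPK3 and 19.8 in RIPK4, against 25.3 in Vector. All 5 neighbouring pairs in this order of levels were apart by more than counting error. It was 3.87-fold lower in Wnt3a than in Vector (95% interval 3.54 to 4.23) and 3.13-fold lower in RIPK1 (2.89 to 3.39). Intervals are exact binomial ones from the reads of both libraries and cover counting error only, and such ratios compare libraries, not conditions. In the kinase libraries with more of it, DDX58 was 1.60-fold higher in RIPK2 (1.52 to 1.68) and 1.86-fold higher in RIPK3 (1.77 to 1.96), and neither reached 2-fold. Among the 11881 kept genes its difference ranked 14 from the lowest in Wnt3a and 24 from the lowest in RIPK1.

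IFIH1 (64135), the helicase MDA5, stood at 2.61 RPKM in Wnt3a, 0.876 in RIPK1, 13.2 in RIPK2, 17.4 in RIPK3 and 6.45 in RIPK4, against 8.16 in Vector. RIPK1 held 69 reads of it, where Vector held 568. The RIPK1 level was 9.31-fold below Vector (7.24 to 12.1) and ranked 9 from the lowest among kept genes. Against RIPK4, which also received a kinase plasmid for 48 h, it was lower as well, with RIPK4 7.36-fold above RIPK1 (5.71 to 9.62). In RIPK3, IFIH1 was 2.13-fold higher than in Vector (1.93 to 2.35), a log2 difference that lies just at the 2-fold mark and becomes 0.97 when the libraries are rescaled by median ratios.

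DHX58 (79132), the helicase LGP2, which binds RNA but lacks the signalling domains of the others, was scarce. It stood at 0.945 RPKM in Wnt3a (54 reads), 0.349 in RIPK1 (21 reads), 2.84 in RIPK2 (169 reads), 2.396 in RIPK3 (141 reads) and 1.38 in RIPK4 (78 reads), against 0.978 in Vector (52 reads). RIPK2 and RIPK3 formed the upper end, and RIPK1 stood below all the others. As a ratio of RPKM it was 2.91-fold higher in RIPK2 (2.12 to 4.05), 2.45-fold higher in RIPK3 (1.77 to 3.44) and 2.80-fold lower in RIPK1 (1.66 to 4.90) than in Vector. On log2(RPKM + 1) these came to 0.96, 0.78 and -0.55, all short of 2-fold. With a pseudocount of 0.1 they were 1.45, 1.21 and -1.26, past it. The Wnt3a ratio of 0.967 had an interval that includes 1 (0.648 to 1.44). With the trend of the differences on transcript GC content (58.2% for DHX58) removed, the difference was -0.38 in Wnt3a, -0.56 in RIPK1, 0.65 in RIPK2, 0.56 in RIPK3 and -0.03 in RIPK4.

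In the RPKM as deposited, the proportions of the 3 helicases to each other shifted between libraries. DDX58 was 9.24 times IFIH1 in RPKM within the RIPK1 library (7.22 to 11.99), against 3.10 times within Vector (2.83 to 3.41). In the remaining libraries this ratio was 2.51 in Wnt3a, 3.06 in RIPK2, 2.72 in RIPK3 and 3.07 in RIPK4, with intervals that together spanned 2.13 to 3.40. IFIH1 thus made up 9.40% of the summed RPKM of the 3 helicases in RIPK1, against 23.7% in Vector, and 23.4% to 25.9% in the others. DHX58 made up 9.36% in Wnt3a, against 2.84% in Vector, and 3.58% to 5.03% in the kinase libraries. These shares carry the GC trend, and DHX58 has 58.2% GC where DDX58 has 40.5%. In RIPK2 the log2 differences from Vector were 0.96 for DHX58 and 0.66 for DDX58, and 0.65 and 0.94 with the GC trend removed. In RIPK4 they went from 0.27 and -0.34 to -0.03 and -0.13, and in Wnt3a from -0.02 and -1.80 to -0.38 and -1.48. Their order was the same either way in RIPK1 and RIPK3.

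**Figure D2:**
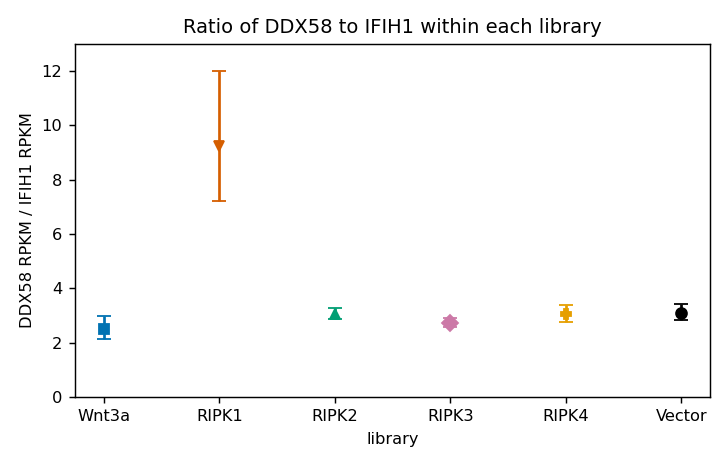
Ratio of DDX58 RPKM to IFIH1 RPKM within each of the 6 libraries, with exact binomial 95% intervals from the reads of both genes (counting error only). RIPK1 stands at 9.24 and the other 5 libraries between 2.51 and 3.10.

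EIF2AK2 (5610) encodes PKR, a kinase that double-stranded RNA activates and that then halts translation by phosphorylating eIF2-alpha. It stood at 19.9 RPKM in Wnt3a, 30.8 in RIPK1, 48.1 in RIPK2, 56.7 in RIPK3 and 41.1 in RIPK4, against 44.3 in Vector. This is the same order of levels as that of DDX58 over a narrower span of 2.85-fold. It was 2.23-fold lower in Wnt3a (2.07 to 2.40) and 1.44-fold lower in RIPK1 (1.35 to 1.53). The Wnt3a difference of -1.12 on the log2 scale became -0.76 with the GC trend removed, which is short of 2-fold. The RIPK4 difference went from -0.10 to 0.10, above Vector, where DDX58 stayed below it at -0.13. The order shared with DDX58 is thus that of the RPKM as deposited. Exons of EIF2AK2 overlap GPATCH11 and a processed pseudogene on the opposite strand, and whether counting used strand is not given in the sources used here.

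IFI16 (3428), a DNA-binding protein of the nucleus and cytosol that has been placed upstream of STING, was the most abundant member. It stood at 35.8 RPKM in Wnt3a, 57.5 in RIPK1, 97.7 in RIPK2, 121 in RIPK3 and 56.9 in RIPK4, against 97.8 in Vector. Wnt3a was lowest and 2.74-fold below Vector (2.60 to 2.88). Here RIPK4 and RIPK1 lay together, 1.72-fold (1.65 to 1.79) and 1.70-fold (1.63 to 1.77) below Vector, and the ratio of RIPK4 to RIPK1 of 0.989 had an interval that includes 1 (0.944 to 1.04). On the log2 scale these differences were -0.77 in RIPK4 and -0.76 in RIPK1. With the GC trend removed they were -0.56 and -0.78, and so lay less close. For DDX58 and IFIH1, by contrast, RIPK4 held 2.45 and 7.36 times the level of RIPK1. The ratio of IFI16 to EIF2AK2 was accordingly lowest in RIPK4, at 1.38 (1.31 to 1.46), against 2.21 in Vector (2.10 to 2.32).

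TLR3 (7098), a receptor for double-stranded RNA in endosomes, was near the limit of detection with 8 to 37 reads a library. It stood at 0.307 RPKM in Wnt3a, 0.567 in RIPK1, 0.124 in RIPK2, 0.376 in RIPK3 and 0.343 in RIPK4, against 0.572 in Vector. Its order did not follow that of the helicases, since RIPK2 was lowest and RIPK1 lay beside Vector. The ratio of RIPK2 to Vector was 0.217 (0.0865 to 0.479), from 8 reads against 33. TICAM1, the adaptor that TLR3 needs, had 0 to 2 reads in every library. A count of 0 allows up to 3 reads, which for TICAM1 is 0.0644 RPKM in Vector.

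The adaptors were steadier. MAVS (57506) stood at 16.3 RPKM in Wnt3a, 15.5 in RIPK1, 17.4 in RIPK2, 17.2 in RIPK3 and 17.8 in RIPK4, against 13.2 in Vector, the lowest of the 6. Its ratios to Vector ran between 1.18 and 1.35. TMEM173 (340061), the adaptor STING, stood at 1.12 RPKM in Wnt3a, 1.43 in RIPK1, 0.891 in RIPK2, 1.15 in RIPK3 and 1.39 in RIPK4, against 1.24 in Vector. These rest on 29 to 47 reads, and all 5 ratios to Vector had intervals that include 1. Those intervals together ran between 0.426 and 1.83, so at this depth the ratios are only loosely bounded.

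TBK1 (29110), the kinase that phosphorylates IRF3, stood at 10.3 RPKM in Wnt3a, 14.6 in RIPK1, 10.9 in RIPK2, 12.3 in RIPK3 and 10.7 in RIPK4, against 15.9 in Vector, the highest of the 6. Its differences of -0.58, -0.12, -0.51, -0.35 and -0.53 on the log2 scale became -0.24, -0.14, -0.21, -0.18 and -0.34 with the GC trend removed. An antisense transcript overlaps its exons. TREX1 (11277), a 3′ exonuclease that degrades cytosolic DNA, stood at 7.18 RPKM in Wnt3a, 4.61 in RIPK1, 7.04 in RIPK2, 5.42 in RIPK3 and 6.77 in RIPK4, against 5.21 in Vector. None of these differences reached 2-fold. TREX1 is uncertain, because it shares exons with ATRIP on the same strand, and the length behind its RPKM came out as 3337 bases where the annotation of TREX1 alone covers 1515. The length behind DDX58 also exceeded its annotation, at 5224 against 4353 bases, though no gene with overlapping exons was found there.

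**Figure D3:**
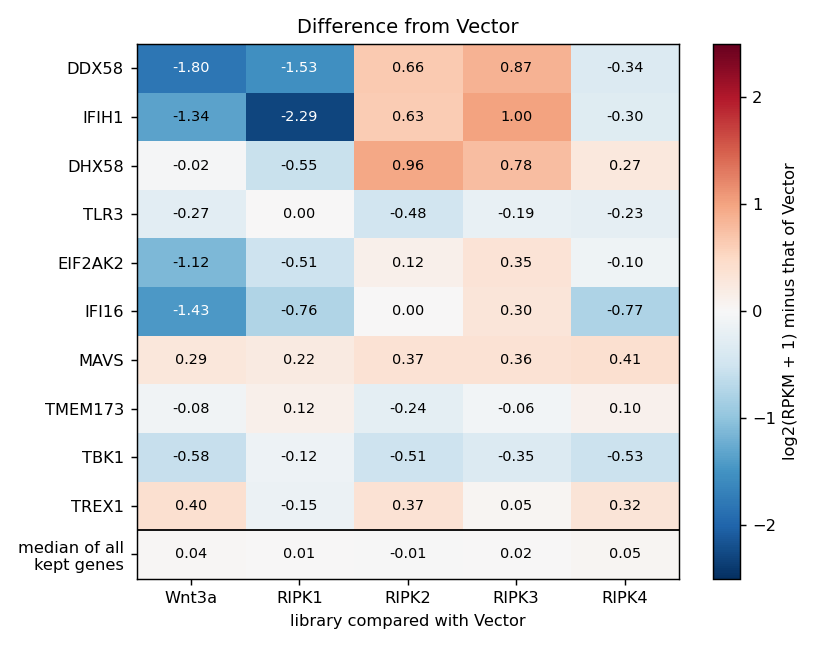
Difference of log2(RPKM + 1) from Vector for each of the 10 genes (rows) in the 5 other libraries (columns), with the median of all kept genes in the bottom row. Blue is lower and red higher than Vector. The largest differences are those of IFIH1 in RIPK1 (-2.29) and DDX58 in Wnt3a (-1.80).

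Counted over the 9 kept members, 4 were at least 2-fold lower in Wnt3a (DDX58, IFIH1, EIF2AK2 and IFI16) and 0 at least 2-fold higher. The background over all kept genes was 1.43% lower and 0.673% higher. The members' median difference was -0.58, against 0.04 for all kept genes. Ligand and time differ between these libraries, no plasmid is recorded for Wnt3a, and the parts of these cannot be told apart. In RIPK1, 2 of 9 were at least 2-fold lower (DDX58 and IFIH1) with 0 higher, on a background of 0.547% and 0.295%, and the median was -0.51, against 0.01 for all kept genes.

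In RIPK2 and RIPK3 the members' medians were above 0, while TBK1 was below Vector in both. With the GC trend removed, TBK1 stood at -0.21 and -0.18. TMEM173 was not apart from Vector in either, with intervals that include 1. In RIPK2, 0 of 9 reached 2-fold in either direction, where 1.59% of kept genes were higher and 0.699% lower. The median was 0.37, against -0.01 over all kept genes, and DHX58 at 0.96 was the largest difference. In RIPK3, 1 of 9 (IFIH1) was at least 2-fold higher and 0 lower, on a background of 1.47% and 0.581%, with a median of 0.35, against 0.02. RIPK3 exceeded RIPK2 by small ratios in DDX58 (1.17, interval 1.12 to 1.22), IFIH1 (1.31, 1.21 to 1.43), EIF2AK2 (1.18, 1.12 to 1.24) and IFI16 (1.24, 1.20 to 1.28), but not in DHX58 (0.843, 0.670 to 1.06). In RIPK4, 0 of 9 reached 2-fold, on a background of 0.396% higher and 0.387% lower, and the median was -0.10, against 0.05. All 5 comparisons share the Vector library.

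Differences from Vector followed the GC content of transcripts in 4 of the 5 comparisons. Across kept genes Spearman's rho was 0.693 in Wnt3a, 0.663 in RIPK2, 0.544 in RIPK3 and 0.667 in RIPK4, and -0.0817 in RIPK1. These correlations are across genes, which share the 2 libraries compared and are not independent. The 4 members that reached 2-fold have a low GC content, with 38.6% GC for IFI16, 38.7% for EIF2AK2, 40.5% for DDX58 and 43.3% for IFIH1. TBK1 at 39.3% lies in the same range, TLR3 at 37.6% is the lowest of the 10, and TREX1 at 63.1% is the highest. With the trend removed, DDX58 stood at -1.48 in Wnt3a, -1.55 in RIPK1, 0.94 in RIPK2 and 1.07 in RIPK3. The corresponding values for IFIH1 were -1.18, -2.32, 0.81 and 1.11. TREX1, which had stood at 0.40 in Wnt3a and 0.37 in RIPK2, came to -0.03 and 0.02.

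**Figure D4:**
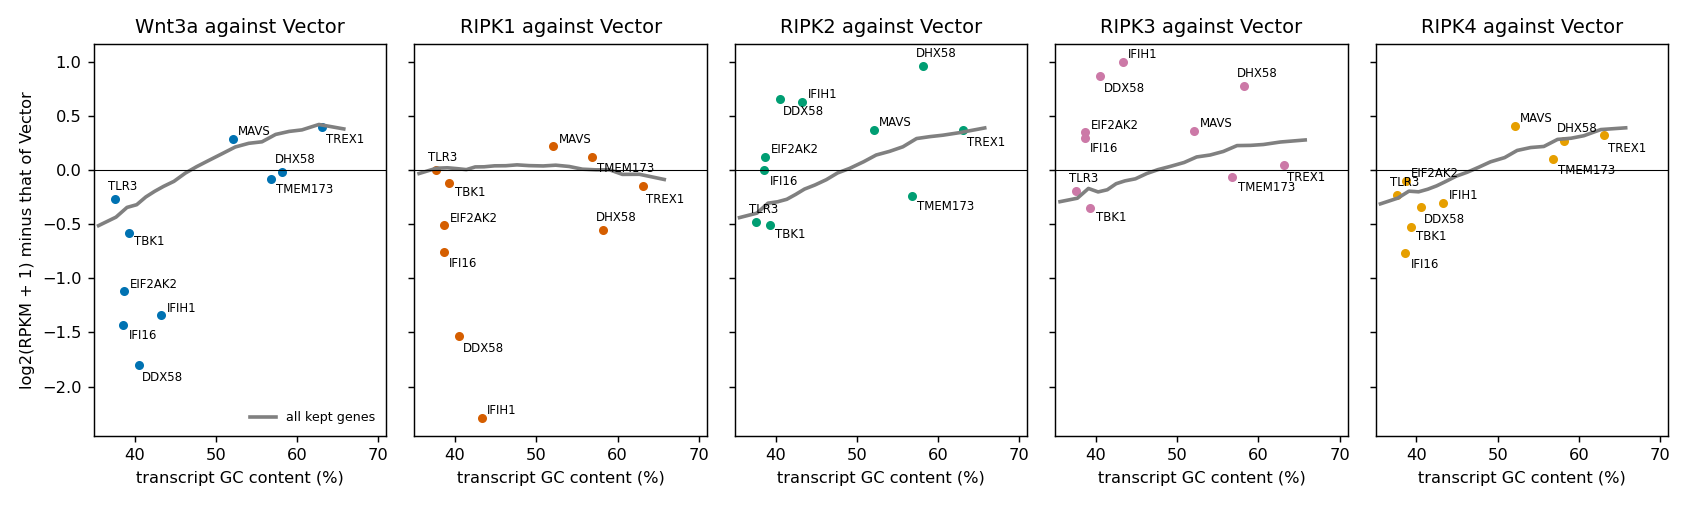
Difference of log2(RPKM + 1) from Vector against the GC content of the gene's longest transcript, for the 10 genes (labelled points), 1 panel for each comparison. The grey line joins the medians of kept genes in 20 bins of GC content. In RIPK1 the line is flat and IFIH1 lies at -2.29, and in RIPK2 and RIPK3 the helicases lie above the line.

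Promoters of the members were searched for the core of the interferon-stimulated response element, to which IRF and STAT complexes bind, written as GAAA, any 2 bases and GAAA again, and for the gamma-activated site TTCNNNGAA. Both strands were read over 250 bases before and 50 after each annotated start. The promoters are those of RefSeq on GRCh38.p14, for 8 members (not DHX58 and TMEM173), and only their letters are used with values that the submitters' processing notes tie to hg19. The response element core was present in 3 of the 8 members (IFIH1, EIF2AK2 and TLR3), that is in 3 of their 9 promoters. Counted by promoter, it was present in 3.57% of all 35116 in the table and in 2.67% of those of kept genes. A form with 1 base between the repeats was searched only after the sequences had been seen. It occurred in DDX58 and in the second promoter of IFI16, in 3.12% of all promoters and in 2.4% of those of kept genes. MAVS, TBK1 and TREX1 held neither. TTCNNNGAA occurred in TLR3 alone of the 8, in 7.66% of all promoters and in 6.23% of those of kept genes. For IFI16 only the second promoter is printed below, and the first held neither form. TLR3, which holds the core, did not reach 2-fold and is not printed. The promoters of the 4 genes that reached 2-fold, and that of MAVS, which held neither form, are given 5′ to 3′. Each covers 220 bases before the start and 10 from it on. The repeats and the bases between them are in capitals (TTTC where they lie on the other strand).
DDX58 promoter (chr9:32526187-32526416, minus strand): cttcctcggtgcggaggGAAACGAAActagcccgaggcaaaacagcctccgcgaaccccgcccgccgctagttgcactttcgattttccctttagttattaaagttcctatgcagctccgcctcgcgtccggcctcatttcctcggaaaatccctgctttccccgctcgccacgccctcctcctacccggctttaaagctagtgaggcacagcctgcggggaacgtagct
IFIH1 promoter (chr2:162318675-162318904, minus strand): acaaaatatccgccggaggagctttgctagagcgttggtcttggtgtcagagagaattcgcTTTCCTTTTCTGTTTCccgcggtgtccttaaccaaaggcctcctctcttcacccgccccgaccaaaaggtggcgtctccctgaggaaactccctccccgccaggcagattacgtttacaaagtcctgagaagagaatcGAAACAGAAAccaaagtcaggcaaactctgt
EIF2AK2 promoter (chr2:37156971-37157200, minus strand): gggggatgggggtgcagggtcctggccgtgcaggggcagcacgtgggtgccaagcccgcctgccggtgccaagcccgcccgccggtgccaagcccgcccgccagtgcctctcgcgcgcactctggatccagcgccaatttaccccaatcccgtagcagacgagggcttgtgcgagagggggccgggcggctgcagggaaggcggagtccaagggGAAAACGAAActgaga
IFI16 promoter (chr1:159009687-159009916, plus strand): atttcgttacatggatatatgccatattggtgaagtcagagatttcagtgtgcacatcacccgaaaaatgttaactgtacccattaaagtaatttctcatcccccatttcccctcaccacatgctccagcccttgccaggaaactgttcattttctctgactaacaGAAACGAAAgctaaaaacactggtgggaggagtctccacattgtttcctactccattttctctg
MAVS promoter (chr20:3846614-3846843, plus strand): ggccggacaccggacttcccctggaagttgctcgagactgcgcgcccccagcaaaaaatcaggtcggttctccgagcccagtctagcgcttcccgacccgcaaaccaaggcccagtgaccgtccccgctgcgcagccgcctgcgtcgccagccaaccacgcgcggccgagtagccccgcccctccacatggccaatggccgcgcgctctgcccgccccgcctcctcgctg
IFIH1 held 3 matches, of which a pair on the other strand overlap each other, and the match in EIF2AK2 spans the annotated start. A match describes the letters and is not a shown binding site, and none of it was tested against the levels.

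Lists of other proteins of these routes were counted in the same way. With 0.295% to 1.59% of kept genes called in each comparison and direction, a count of 0 or 1 in lists of this size is near the background and is no result about a list. Of 13 partners of RNA sensing, such as TRIM25, the ubiquitin ligase that assists RIG-I, all 13 were kept and 0 reached 2-fold in any comparison. TRIM25 stood at 23.6 RPKM in Wnt3a, 19.3 in RIPK1, 50.9 in RIPK2, 52.5 in RIPK3 and 37.7 in RIPK4, against 33.9 in Vector. DDX60, a helicase described as a helper of RIG-I, stood at 3.87, 4.04, 10.7, 14.3 and 7.31 RPKM in the same order, against 7.47 in Vector. Both were lowest in Wnt3a or RIPK1 and highest in RIPK3.

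The main DNA sensor was close to absent from the table. MB21D1, the gene of cGAS, had 3 reads in Wnt3a, 3 in RIPK1, 9 in RIPK2, 2 in RIPK3 and 0 in RIPK4, against 2 in Vector, at most 0.259 RPKM. ZBP1, another sensor of nucleic acid, was at 0 in all 6 libraries, and the inflammasome sensor AIM2 had 1 read in Wnt3a and 0 elsewhere. Of 20 partners of DNA sensing listed, 15 were kept. In RIPK3, 1 of these was at least 2-fold higher, TRIM56, a ubiquitin ligase linked to STING and cGAS, at 13.4 RPKM against 6.01 in Vector (2.23-fold, 1.97 to 2.52). With the GC trend removed its difference was 0.90, short of 2-fold. In the other comparisons 0 of 15 reached 2-fold.

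Among 21 signalling kinases and factors, all kept, IKBKE, a kinase related to TBK1, was at least 2-fold higher in RIPK2 and RIPK3, at 3.45 and 3.44 RPKM against 1.17 in Vector. Its differences came to 0.74 in RIPK2 and 0.81 in RIPK3 with the GC trend removed, which ends both calls. IRF7, the interferon-inducible relative of IRF3, was at least 2-fold lower in RIPK1, at 7.04 RPKM against 22.3 (3.17-fold, 2.78 to 3.63). IRF3 itself stood at 15.2 to 24.7 RPKM in the 5 libraries, against 17.4 in Vector. Among 21 kept genes of nucleases and brakes, SAMHD1, which hydrolyses nucleotides, and USP18, an inhibitor of interferon receptor signalling, were at least 2-fold lower in RIPK1, with USP18 also at least 2-fold higher in RIPK3. The RIPK3 difference of USP18, 1.02, became 0.91 with the GC trend removed, which ends that call. SAMHD1 stood at 19.2 RPKM in RIPK1 and USP18 at 3.63, against 47.5 and 10.7 in Vector. The lists of 11 partners of PKR and eIF2 kinases and of 5 kept endosomal receptors had 0 in any comparison.

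Transcripts of interferons themselves were rare, and most lay in RIPK2 and RIPK3. Of 23 genes for interferons and early chemokines, 13 were at 0 in all 6 libraries and 2 were kept. IL29, a lambda interferon, had 3 reads in Wnt3a, 4 in RIPK1, 54 in RIPK2, 31 in RIPK3 and 7 in RIPK4, against 2 in Vector. Its ratio to Vector was 24.1 in RIPK2 (6.37 to 204) and 14.0 in RIPK3 (3.56 to 121). IL29 was kept, with a mean of 1.03 RPKM, only through its levels in RIPK2 (3.27 RPKM) and RIPK3 (1.90). Its place among the kept genes is thus no result apart from these ratios. IFNB1, the gene of interferon-beta, had 0 reads in Wnt3a, 0 in RIPK1, 29 in RIPK2, 17 in RIPK3 and 5 in RIPK4, against 4 in Vector. The ratio of RIPK2 to Vector was 6.48 (2.28 to 25.4), and the zeros of Wnt3a and RIPK1 allow up to 0.193 and 0.183 RPKM, where Vector stood at 0.276. CCL5, an early antiviral chemokine, stood at 7.77 RPKM in RIPK2 and 8.50 in RIPK3, against 0.992 in Vector.

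The summed level of the 10 blood-cell markers was highest in RIPK2 and RIPK3, the libraries with the most DDX58, IFIH1 and DHX58, and lowest in RIPK1. It was 3.63 RPKM in Wnt3a, 2.78 in RIPK1, 7.26 in RIPK2, 6.17 in RIPK3 and 4.27 in RIPK4, against 3.08 in Vector. CD68 alone accounted for 4.89 RPKM of it in RIPK2 and 4.802 in RIPK3, against 1.94 in Vector. The defining leukocyte marker PTPRC had 1 read in Vector and 0 in the other 5 libraries. The part of such cells in the differences was not tested.

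The genes whose 6 levels lay nearest to those of DDX58 were sought among 11372 kept protein-coding genes outside the members, by the root-mean-square distance of log2(RPKM + 1) centred on its mean. The nearest were DTX3L at 0.091, IFIT5 at 0.094, SP110 at 0.161, SAMD9 at 0.187 and PARP9 at 0.188 on that scale. DTX3L, a ubiquitin ligase, stood at 6.07 RPKM in Wnt3a, 7.07 in RIPK1, 31.9 in RIPK2, 38.5 in RIPK3 and 18.0 in RIPK4, against 20.4 in Vector. Among the members IFIH1 was nearest at 0.364, then IFI16 at 0.524, EIF2AK2 at 0.578 and DHX58 at 0.641, and the other 5 lay between 0.994 and 1.08. With 6 libraries this is a description of levels.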

How the data were processed

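RNA of 6 PA-1 libraries was sequenced, 1 for each label. The deposited table gives the authors' RPKM for 20494 genes, a column per library, per the file headers. Of the authors' tools, GSNAP, DESeq and the hg19 build are listed, per the submitters' processing notes, with neither version nor role. The gene annotation, the counting rule and any filter were not given in the sources used here. RPKM was used as deposited.

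Whole reads were recovered by finding, for each gene, the smallest length from 15 to 30000 bases at which all 6 values are whole reads within the rounding of 5 significant digits. This was tested on simulated data. It solved 95.3% of the 11881 kept genes (mean RPKM of at least 1) and 9 of 10 members; for MAVS reads were approximated from its GENCODE 29 length. Totals were 17248966 to 19512255 reads.

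Differences are log2(RPKM + 1) minus that of Vector, and at least 2-fold on that scale is called, with the transfected kinase left out of its own background. With 1 library a group there is no test. Intervals are exact binomial (Clopper-Pearson, scipy 1.17.1) at 95% on the reads compared, and hold for counting error alone, since each group has 1 library. No molecular identifiers are recorded that would mark reads from separate molecules. Reads copied from the same molecule could make the intervals too narrow. The GC trend was a running median over 501 kept genes. Named genes are all members, the kinases, up to 4 genes of each pathway list with the largest differences, sensors of DNA and interferons even when low, and the 5 genes nearest DDX58; TICAM1, IRF3, PTPRC, TDGF1, TYROBP and NANOG were added after their values were seen. Members and lists were chosen with earlier results of these data known. The list of interferon receptors and their signalling factors is not reported here.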

Additional observations from a re-analysis of the deposited data

How the results depend on the processing

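The 50 differences of members from Vector were set against the half-width of their counting interval. With a pseudocount of 0.1, 46 moved by no more than that, 48 after rescaling by median ratios and 25 with the GC trend removed. The filter on low values does not enter a member's difference, so these could not change without it. Of the differences that had reached 2-fold, 0 changed sign. With the GC trend removed, 9 smaller ones changed sign. The number of members at least 2-fold higher became 1 in RIPK2 and 2 in RIPK3 with a pseudocount of 0.1, 0 in RIPK3 after rescaling and 2 in RIPK3 with the GC trend removed. The number at least 2-fold lower became 3 in place of 4 in Wnt3a with the GC trend removed, and 3 in place of 2 in RIPK1 with a pseudocount of 0.1. The members' median became -0.42 in Wnt3a, -0.33 in RIPK1 and 0.24 in RIPK2 without the filter, which adds TLR3, and -0.38 in Wnt3a and 0.51 in RIPK3 with the GC trend removed. Counting the 1-base spacing took the members with a response element from 3 to 5. Each comparison rests on 1 library against 1 Vector library, and depth limits TLR3, DHX58 and TMEM173 most. No paired analysis was possible because each group has 1 library.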
